A study of Mus musculus with 9 samples.

Results

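Gastrocnemius muscle of mice heterozygous for the L1002P allele of Bub1b (hetL1002P) was compared with that of wild-type mice (WT). The comparison takes 3 libraries of each genotype, 6 of the 9 in the series, chosen by the genotype in their titles. Of the 24062 gene symbols in the count table, the 12989 that passed a filter on low counts were tested, and all of them belong to the comparison. All groups were 3 months of age, and on a mixed 129Sve/C57BL/6 background. The WT group carries no altered allele, hetL1002P mice carry 1 copy of the L1002P allele beside a normal copy, and the third group, hetX753, carries the X753 allele in the same way. The series asks how different BubR1 alleles, found in a progeroid syndrome called mosaic variegated aneuploidy (MVA), differ in effect. Nothing in the labels ties a library to its own animal. The p-values therefore reflect the spread over 3 samples a group, and that spread may be technical. RNA came from whole tissue, so each level sums over muscle fibres and every other cell type present.

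Bub1b encodes BubR1, a kinetochore protein of the mitotic spindle checkpoint. This checkpoint holds dividing cells before chromosome separation until every chromosome is attached to spindle microtubules. BubR1 does this as part of a complex with Bub3, Mad2 and Cdc20 that inhibits the anaphase-promoting complex (APC/C), and it also recruits the phosphatase PP2A-B56 to kinetochores. Adult muscle fibres are post-mitotic, so in this tissue the checkpoint can act only in the few cells that divide, such as activated satellite cells, vessel cells and immune cells. The L1002P allele replaces a leucine in the carboxy-terminal kinase-like domain of BubR1 by a proline.

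The position of the altered residue shows how near the end of the coding sequence it lies. Codon 1002 of the 1052 codons of mouse Bub1b lies at chr2:118641164-118641166 on the plus strand of GRCm38, in exon 23 of 23. The reference coding sequence of codons 992 to 1012 (chr2:118641134-118641196, GENCODE M21) is shown 5′ to 3′, with codon 1002, the leucine codon that the allele changes, in capitals.
Bub1b codons 992 to 1012: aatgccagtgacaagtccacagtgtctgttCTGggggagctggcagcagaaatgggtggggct
The counts do not separate the alleles at this codon, so the sequence is the reference alone.

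Library totals ran from 19768149 to 33977252 counts over the 6 libraries. Muscle identity was plain in each: skeletal actin (Acta1) stood at 40824 to 59152 CPM (counts scaled to library size), the muscle creatine kinase gene Ckm at 18656 to 27061 CPM and the fast IIb myosin gene Myh4 at 44211 to 61648 CPM. WT 3 and hetL1002P 3 stood apart from the other 4 libraries on the first principal component, which held 52.4% of the variance, at -41.7 and -26.3 against 0.627 to 38.2. Log2 fold changes are hetL1002P minus WT from the fit of all 9 libraries unless another fit is named. Libraries of the same number resembled each other across the genotypes, so a paired fit, with the replicate number as a block and the 6 libraries alone, is reported beside the fit of all 9 libraries wherever the calls differ.

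Bub1b itself was low in every library. It stood at 0.621, 0.568 and 0.774 CPM in WT 1 to 3, and at 0.393, 0.324 and 0.0949 CPM in hetL1002P 1 to 3. Every carrier library was below every WT library. The log2 fold change was -1.21 (SE 0.44, edgeR, unadjusted p = 0.0184, adjusted p = 0.579), and the exact two-sided permutation test over the 6 libraries gave p = 0.1, the smallest that 3 against 3 allows. The paired fit gave an adjusted p of 0.159. With 2 to 21 counts in a library, the level of Bub1b does not check the labels firmly, and the counts do not show how much of it comes from each allele. The hetX753 libraries had a log2 fold change of -1.21 against the same WT libraries.

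Other checkpoint genes were mostly too low to test. Only 9 of the 23 spindle checkpoint genes with counts listed were tested, and those left out include the kinases Bub1, Ttk, Aurkb and Plk1 and the APC/C activator Cdc20. Bub3, the partner of BubR1, stood at 38.5, 37.4 and 45.6 CPM in WT and 34.2, 30.1 and 41.1 CPM in hetL1002P (log2 fold change -0.21, SE 0.13, adjusted p = 0.586), and its groups overlapped. Mad1l1, which holds Mad2 at kinetochores, was at -0.18 and Zw10, a kinetochore protein that recruits dynein, at 0.23. Pttg1, which encodes the separase inhibitor securin, was the 1 list member that passed in the paired fit (log2 fold change -0.37, adjusted p = 0.0428). In the fit of all 9 libraries it was at -0.35 with an adjusted p of 0.614, and it is named here after its values were seen. The 9 tested members had a median log2 fold change of -0.18, beside 0.01 over all genes.

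Genes downstream of BubR1 lay near no change as groups. The 24 genes of the APC/C and of cohesin, the ring that holds sister chromatids together, had a median log2 fold change of 0.00, with 12 on each side. Anapc1, the largest APC/C subunit, and Pds5a, a cohesin regulator, rose in the paired fit (adjusted p = 0.0369 and 0.033), with log2 fold changes of 0.46 and 0.64 in the fit of all libraries. In a fit with each library's dependence on transcript length and GC content taken out, called the length-corrected fit below, they stood at 0.13 and 0.27. The 9 genes of PP2A-B56 and partners had a median of 0.07, and none passed in either fit.

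Across all genes, the comparison gave no call at an adjusted p under 0.05 in edgeR's quasi-likelihood fit of the 9 libraries (0% of 12989). At an unadjusted p under 0.05 there were 1034 genes (7.96%), of which 700 were higher (5.39%) and 334 lower (2.57%) in hetL1002P. Of all genes 51.9% were above 0 and 48.1% below. Every carrier library lay above every WT library in 736 genes (5.67%) and below in 490 (3.77%). Scaled by library totals alone, the split was 819 higher (6.31%) and 221 lower (1.7%), and the median log2 fold change of all genes moved from 0.01 to 0.10. DESeq2 called 5 genes (0.0385%), namely Pla2g4e, Gm14085, Kcnma1, Vps13c and Dynlt1b, and limma-voom called 2 (0.0154%), Pla2g4e and Gm14085. The length-corrected fit called 1 gene, Pla2g4e (0.0077%). The paired fit called 635 of 12684 genes (5.01%), with 334 higher (2.63%) and 301 lower (2.37%). That fit leaves fewer residual degrees of freedom than the fit of all 9 libraries. With the replicate block in all 9 libraries, 0 genes were called. All 635 had the same direction in the fit of all 9 libraries, and 370 had an unadjusted p under 0.05 there. Both fits compare the same 6 libraries, so the shared direction is no separate support for the calls.

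The count from the paired fit depended on single pairs. Without pair 1, 2 or 3 it was 30, 4 and 227 genes, of which 19, 1 and 143 were among the 635. With the length correction added to the block, Pla2g4e was the 1 gene called (0.00788%), while 630 of the 635 kept their direction and 363 had an unadjusted p under 0.05.

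Pla2g4e had the smallest p of all genes. It encodes a cytosolic phospholipase A2 that makes N-acylphosphatidylethanolamines, the precursors of N-acylethanolamine lipids, and is expressed in muscle. Its level was 29.3, 28.9 and 21 CPM in WT 1 to 3, and 66.3, 63.2 and 51.3 CPM in hetL1002P 1 to 3. The lowest carrier library lay well above the highest WT library, and the difference was of like size in all 3 same-numbered pairs (log2 1.13 to 1.29). The log2 fold change was 1.19 (SE 0.15, 2.28-fold), with an adjusted p of 0.0802 in the fit of all 9 libraries and 0.000218 in the paired fit. It was called in the length-corrected fit (1.09, adjusted p = 0.00373), with 1 surrogate variable, with hetL1002P 3 left out, and with WT 3 and hetL1002P 3 both left out. With any other single library left out it was not called (edgeR, adjusted p = 0.122 to 0.433). The 6 libraries without a block and the block in all 9 libraries gave no call of it either. The same held for other scalings and for the filter of 1 CPM in 3 libraries. The exons of Pla2g4e overlap Gm13997 on the same strand, so reads could be split between the 2 symbols. The other 11 tested phospholipases A2 had no call in either fit; Pla2g6, a calcium-independent enzyme of the family, was at -0.20 and the secreted Pla2g5 at -0.43.

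Gm14085, a predicted gene, was almost absent from WT muscle. It had 0, 1 and 0 counts in WT 1 to 3, and 0.944, 0.647 and 0.807 CPM in hetL1002P 1 to 3. Summed over libraries this is 1 count against 59, a ratio of 58.6 per scaled total with an exact 95% interval for counting error of 10.1 to 2354. The adjusted p was 0.0802 in the fit of all libraries, 0.0157 in the paired fit and 0.0207 in DESeq2. Pla2g4e and Gm14085 both lie on chromosome 2 near Bub1b, as described further on.

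**Figure D1:**
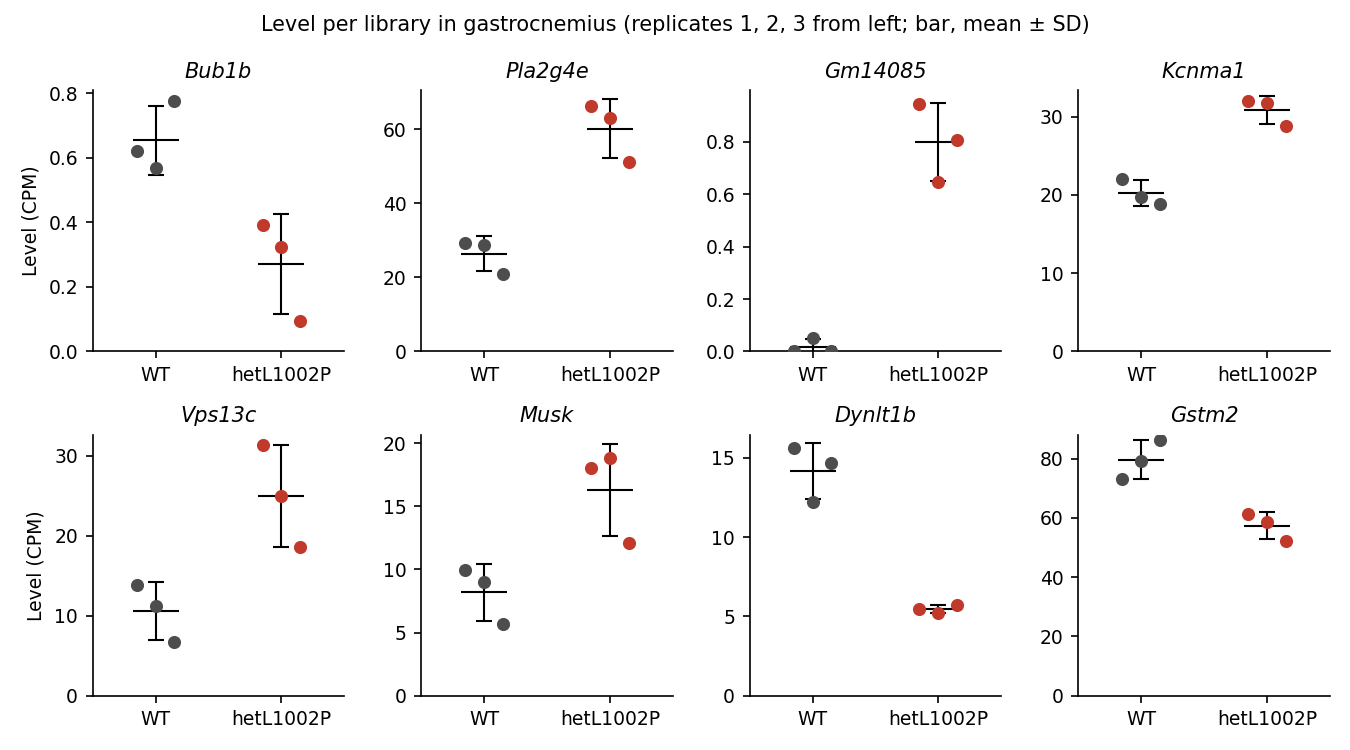
Level in CPM (vertical axes, each starting at 0) of 8 genes in the 3 WT and 3 hetL1002P libraries. Points are libraries, replicates 1 to 3 from left to right, and bars give mean and SD (n = 3). Bub1b apart, the genes shown were picked among those with the smallest p, so their lack of overlap is no separate result. Over all genes, every carrier library lay above every WT library in 5.67% and below in 3.77%. Pla2g4e goes from 21 to 29.3 CPM in WT to 51.3 to 66.3 CPM in the carriers.

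Next among the genes with the smallest p that were higher in hetL1002P was Kcnma1, the pore subunit of the BK calcium-activated potassium channel. It stood at 22.1, 19.8 and 18.9 CPM in WT and at 32, 31.8 and 28.8 CPM in hetL1002P. The log2 fold change was 0.61 (SE 0.11), with an adjusted p of 0.579 in the fit of all libraries and 0.0232 in the paired fit. Its groups did not overlap, and in the length-corrected fit it was at 0.21. Part of Kcnma1 overlaps the exons of 4930519K11Rik, and the library kit does not mark strand.

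Vps13c, which moves lipids between the endoplasmic reticulum and other organelles, had 13.9, 11.2 and 6.67 CPM in WT and 31.4, 25 and 18.6 CPM in hetL1002P. All carriers were above all WT libraries, with a log2 fold change of 1.23 (SE 0.28, paired adjusted p = 0.000733), and 0.86 in the length-corrected fit. Musk, the receptor kinase that clusters acetylcholine receptors at the neuromuscular junction, had 9.94, 9.03 and 5.66 CPM in WT and 18, 18.8 and 12.1 CPM in hetL1002P. Its log2 fold change was 0.99 (SE 0.23, paired adjusted p = 0.00457) and stayed at 0.96 in the length-corrected fit. For both genes the library numbered 3 was the lowest of its group.

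Tm6sf1, a lysosomal membrane protein gene (0.84), Map1a, which encodes a microtubule-associated protein (0.66), Tmem56 (0.49), Fam120c (0.52) and Lims1, which encodes the focal adhesion adaptor PINCH1 (0.54), were each called in the paired fit. Uhrf1bp1l (0.46), Ccne2, the cyclin E2 gene (0.78), and Pld5 (0.79) were not, with paired adjusted p of 0.0546, 0.0908 and 0.0519. Ccne2 rests on 1.14 to 1.26 CPM in WT against 1.9 to 2.16 CPM in hetL1002P and overlaps Ints8 on the other strand. Tm6sf1, Map1a and Fam120c also overlap exons of neighbours. In the length-corrected fit Map1a, Tmem56 and Fam120c stood at 0.35, 0.21 and 0.31. Tm6sf1, Lims1, Uhrf1bp1l, Ccne2 and Pld5 stood at 0.82, 0.38, 0.20, 0.73 and 0.66 there.

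The gene with the smallest p among those lower in hetL1002P was Dynlt1b, a light chain of cytoplasmic dynein. It stood at 15.6, 12.2 and 14.7 CPM in WT and 5.47, 5.21 and 5.69 CPM in hetL1002P, with no overlap and little spread among carriers. The log2 fold change was -1.38 (SE 0.31, paired adjusted p = 0.000952) and was -1.14 in the length-corrected fit. Dynlt1a, Dynlt1c and Dynlt1f are near-identical copies, so the split of reads among them is uncertain. Dynlt1a had 1.31 to 1.86 CPM in WT and 1.61 to 1.89 CPM in hetL1002P, and Dynlt1f 0.769 to 0.826 and 0.575 to 0.826 CPM, while Dynlt1c had 0 counts in all 6 libraries.

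The glutathione S-transferase genes Gstm1 and Gstm2, which conjugate glutathione to electrophiles, were both in this set. Gstm2 stood at 73.3, 79.2 and 86.4 CPM in WT and at 61.3, 58.5 and 52.3 CPM in hetL1002P, and Gstm1 at 186, 225 and 254 CPM and 148, 165 and 171 CPM. Neither gene's groups overlapped. Their log2 fold changes were -0.47 and -0.46, the paired adjusted p were 0.0368 and 0.033, and in the length-corrected fit the values were -0.23 and -0.22. They are related in sequence to each other and to further Gstm genes. Gstm5 had 71.1, 73.2 and 93.8 CPM in WT and 56.1, 52.5 and 76.5 CPM in hetL1002P. Gstm4 had 20, 18.2 and 24.7 CPM and 13.4, 12.6 and 22.1 CPM, and Gstm7 3.17, 4.23 and 3.43 CPM and 3.62, 3.42 and 3.32 CPM.

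Cytl1, which encodes a secreted cytokine-like protein, had 6.57, 8.21 and 8.07 CPM in WT and 3.11, 3.09 and 4.18 CPM in hetL1002P (log2 fold change -1.14, SE 0.31, paired adjusted p = 0.0148). The carriers stood lower by more than the spread in either group. Snhg12 and Snhg8, host genes of small nucleolar RNAs, were at -1.11 and -0.64 and were called in the paired fit, as were Tagln2 (-0.42), which encodes an actin-binding protein, Dnph1 (-0.62), a nucleotide hydrolase gene, Spns2 (-0.36), the sphingosine-1-phosphate exporter gene, and the class I antigen-presentation gene H2-D1 (-0.61). Mfap1a, a splicing factor gene (-0.42), and the chemokine gene Ccl8 (-2.54) were not called in it. Ccl8 rested on WT 3 at 5.41 CPM, against 1.01 and 0.723 CPM in the other WT libraries. Spns2 overlaps Mybbp1a on the other strand, and Mfap1a has the near-identical copy Mfap1b, which had 2.42 to 2.75 CPM in WT and 2.05 to 2.95 CPM in hetL1002P. Length correction took Tagln2 to -0.20, Dnph1 to -0.37 and Snhg8 to -0.42. Cytl1, Snhg12, Spns2, H2-D1, Mfap1a and Ccl8 stood at -0.91, -0.93, -0.31, -0.45, -0.55 and -2.14 in that fit.

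Gm14085 had a log2 fold change of 5.45 in the paired fit. The ranking that follows leaves out predicted and sex-linked genes and those averaging under 1 CPM. Among the other genes called in that fit, the highest log2 fold changes belonged to genes whose levels differed widely between pairs. Nos1, which encodes neuronal nitric oxide synthase, had 10.9, 10.9 and 3.34 CPM in WT and 25.9, 35.3 and 6.26 CPM in hetL1002P (log2 fold change 1.42, paired adjusted p = 0.00433). The rule that named these genes required every carrier library above the WT library of its number, so that order is no result. In Nos1, hetL1002P 3 was below WT 1 and WT 2. Overlapping groups were also seen in Cep85l, which encodes a centrosomal protein (1.71), and Nt5c1a, the AMP-hydrolysing nucleotidase gene of muscle (1.67). The same held for Lmbrd2 (1.53), Lnpep, the insulin-regulated aminopeptidase gene (1.49), Arl5b (1.46), Fgd4 (1.34), Shroom4 (1.36) and Galnt15 (1.39). The lowest in the paired fit were Dynlt1b, Cytl1, Egr1 (-1.14 in that fit) and Snhg12, followed by Plet1os (-0.83), Adamts13 (-0.79), Ifi27l2a (-0.73), Morn2 (-0.72), Zfp36 (-0.69) and Ier2 (-0.67). Among these lowest genes, Egr1, Morn2 and Zfp36 had overlapping groups. After length correction Morn2 was at -0.45 and Ifi27l2a at -0.43. Egr1, Plet1os, Adamts13, Zfp36 and Ier2 were at -1.36, -0.61, -0.88, -0.62 and -0.46. Length-corrected, Nos1 was at 1.07, Cep85l at 1.35, Lmbrd2 at 1.12, Lnpep at 1.01 and Arl5b at 1.11. Fgd4, Shroom4 and Galnt15 stood at 0.96, 1.02 and 1.12 there, and Nt5c1a at 1.96.

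A larger share of the genes near Bub1b than of all genes had a low p. Within 5 Mb of Bub1b on chromosome 2, 86 genes were tested, Bub1b included, and 23 of them had an unadjusted p under 0.05 (26.7%), against 7.96% of all genes and 8.22% of the rest of chromosome 2. Of the 23, 17 were higher and 6 lower. The length-corrected fit had 14 of the 86 under 0.05 (16.3%, against 4.38% of all genes), and the paired fit called 10 (11.6%, against 5.01%). Without both WT 3 and hetL1002P 3 there were 27 (31.4%, against 19.9%). These are descriptions of 1 region, since neighbouring genes are not independent of each other. In hetX753, whose altered allele is at the same locus, 23 of the same 86 genes had an unadjusted p under 0.05 (26.7%) against the shared WT libraries, beside 20.9% of all genes.

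In order along the chromosome, the 23 began 1.42 Mb before Bub1b with Spred1 (0.54), an inhibitor of Ras signalling. Close after Bub1b came A430105I19Rik (0.48), the leucine-breakdown gene Ivd (-0.27), Ccdc32 (-0.44), Exd1 (0.67), Chp1 (-0.26) and 1700020I14Rik (0.74). Then came Mga (0.61), a transcription factor gene, Mapkbp1 (0.61), Ehd4 (0.25), Pla2g4e at 1.52 Mb, Ganc (0.41), Zfp106 (0.48), Ttbk2 (0.46) and the ubiquitin ligase gene Ubr1 (0.44).

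Farther along stood Tubgcp4 (0.73), a subunit of the gamma-tubulin ring complex, Map1a (0.66) at 2.65 Mb, Ppip5k1 (0.44), Mfap1a (-0.42), B2m (-0.36), the light chain of class I molecules, Gm14085 at 3.84 Mb and Bloc1s6 (0.36). Zfp106, which encodes a zinc finger protein needed to keep motor innervation of muscle, had 1049, 929 and 847 CPM in WT and 1456, 1477 and 1013 CPM in hetL1002P. Its groups overlapped at hetL1002P 3 (paired adjusted p = 0.0392), and in the length-corrected fit it was at 0.12. Map1a and Ppip5k1 overlap in their exons, so their values are not independent. Mga, Mapkbp1, Ppip5k1 and B2m were at 0.16, 0.38, 0.26 and -0.17 after length correction.

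**Figure D2:**
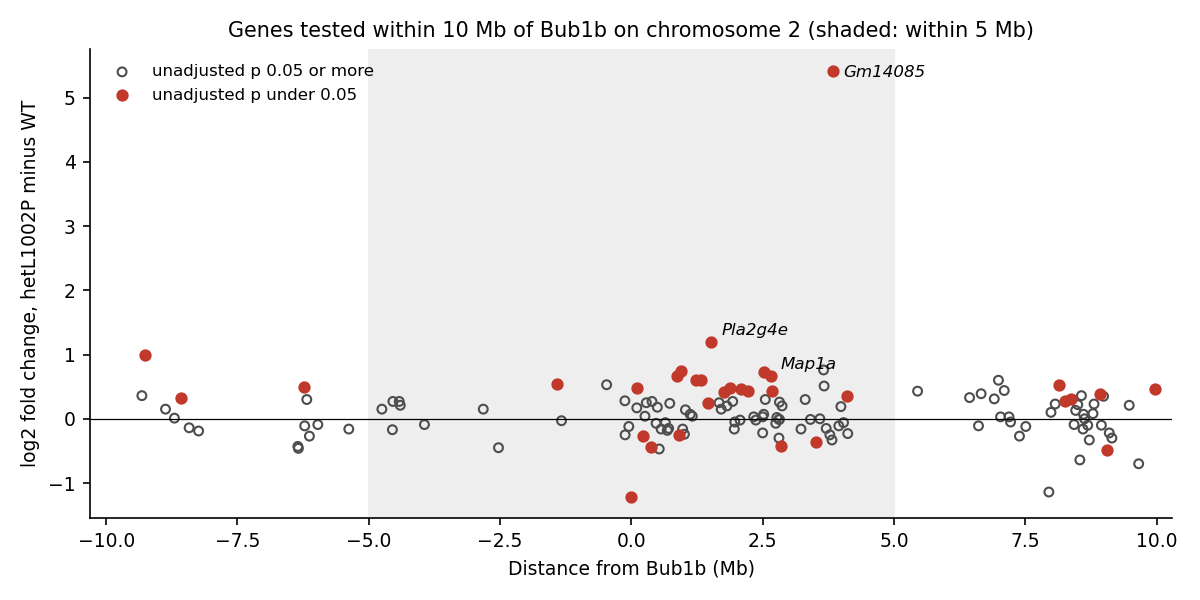
Log2 fold change of hetL1002P over WT (vertical axis) against distance from Bub1b in Mb (horizontal axis) for each of the 140 genes tested within 10 Mb. Filled points have an unadjusted p under 0.05, and the shaded band covers the 86 genes within 5 Mb, 23 of them filled.

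Fold changes ran with transcript length. Ranked by length into 10 groups of like size, the group of shortest transcripts (median 1082 bases) had a median log2 fold change of -0.28 with 12.4% above 0, and the longest (median 8293 bases) had 0.32 with 89.8% above 0. Across 12917 genes with a length, Spearman's rho between length and log2 fold change was 0.587, a description across genes that share the same libraries. All 3 same-numbered pairs had the trend, with rho of 0.407, 0.545 and 0.374.

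The trend was also present among libraries of 1 genotype. The deviation of WT 3 from the mean of the 6 libraries had rho of -0.597 with length and that of hetL1002P 3 had -0.312, while hetL1002P 1 and 2 had 0.526 and 0.556. Without both WT 3 and hetL1002P 3 the rho of the fold change was 0.547, without WT 3 alone 0.423, and in hetX753 against the same WT libraries 0.471. The genes called in the paired fit followed it: those higher had a median length of 7521 bases and those lower 1194 bases, against 3423 bases over all genes tested. The part of this trend in the results was tested only by the length-corrected fit. Its values are given beside most of the lists and beside many, not all, of the genes called in the paired fit.

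**Figure D3:**
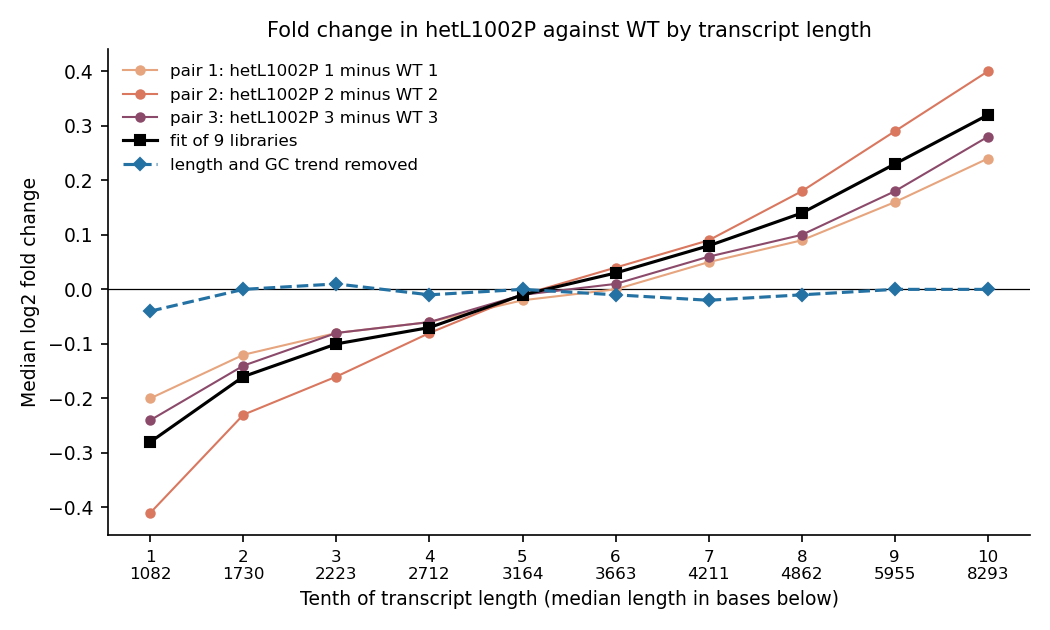
Median log2 fold change of hetL1002P over WT (vertical axis) by transcript length in 10 groups (horizontal axis, with the median length in bases). Squares are the fit of 9 libraries, circles the 3 same-numbered pairs and diamonds the fit with the length correction. The squares climb from -0.28 to 0.32 while the diamonds stay between -0.04 and 0.01.

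Very long genes of the sarcomere, membrane and cytoskeletal scaffolds stood higher in hetL1002P. All 28 tested members were above 0 (51.9% of all genes were), with a median log2 fold change of 0.41 beside 0.01 over all genes. At an unadjusted p under 0.05 there were 9 of them, against 5.39% of all genes, and 14 of 27 rose in the paired fit, against 2.63%. Length-corrected, the median was 0.00, with 15 above and 13 below 0.

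Dmd, which encodes dystrophin, the link between actin and the fibre membrane, had 45.2, 45.6 and 26.2 CPM in WT and 88.9, 89.2 and 41.1 CPM in hetL1002P. In both groups the library numbered 3 was low, so that hetL1002P 3 was below WT 1 and WT 2. The log2 fold change was 0.91 (SE 0.28, paired adjusted p = 0.00366), and 0.43 in the length-corrected fit. Without both WT 3 and hetL1002P 3 Dmd was called in the fit without a block. Herc1, a giant ubiquitin ligase gene (0.53), and Macf1, which crosslinks actin and microtubules (0.44), rose in the paired fit and stood at 0.11 and 0.00 in the length-corrected fit.

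A list of VPS13, other bridge-like and further lipid transfer proteins was higher as well, with 15 of 18 above 0 (51.9% of all genes). Its median was 0.18, and 4 were called higher in the paired fit (2.63% of all genes). Vps13c was already named for its p, and the list was chosen with earlier results of these data known. The count is therefore a description alone. The 4 were Vps13c, 4932438A13Rik (0.56), Osbpl11 (0.49), a sterol and phospholipid carrier gene, and Vps13b (0.60). In the length-corrected fit the list median was 0.00, and the 4 stood at 0.86, 0.11, 0.37 and 0.16.

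Short, abundant housekeeping genes stood lower. Of 77 genes of the cytosolic ribosome, 76 were below 0 (48.1% of all genes were), and their median was -0.32. At an unadjusted p under 0.05 there were 9 (against 2.57% of all genes), and 28 fell in the paired fit (against 2.37%). Length-corrected, the median was -0.10 and 69 of 77 were below 0. Rpl10 had 355, 373 and 446 CPM in WT and 286, 283 and 349 CPM in hetL1002P, without overlap (log2 fold change -0.36, SE 0.13, paired adjusted p = 0.0431). Rpl18, Rpl29 and Rpl8 were at -0.46, -0.37 and -0.37 and fell in the paired fit, with overlapping groups. Ribosomal protein genes have many processed pseudogenes, so their counts depend on how multiply mapped reads were treated. After length correction Rpl10, Rpl29 and Rpl8 were at -0.15, -0.08 and -0.10, while Rpl18 was at -0.42.

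The mitochondrial ribosome had a median of -0.22, with 72 of 75 below 0 (48.1% of all genes), 0 at an unadjusted p under 0.05 (2.57% lower among all genes) and 9 lower in the paired fit (2.37%). The length-corrected median was -0.07. Mrpl23 and Mrps16 fell in the paired fit, at -0.43 and -0.44, and stood at -0.46 and -0.39 after length correction.

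All 32 proteasome genes were below 0 (48.1% of all genes), with a median of -0.26 and 6 lower in the paired fit (2.37% of all genes). Length-corrected, 29 of 32 were below 0, with a median of -0.10. Psmb5, the catalytic subunit with chymotrypsin-like activity, had 116, 136 and 181 CPM in WT and 98.9, 96.1 and 127 CPM in hetL1002P (log2 fold change -0.43, SE 0.18, paired adjusted p = 0.0392). Its groups overlapped only at hetL1002P 3 against WT 1. Length-corrected, Psmb5 was at -0.14.

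Nuclear genes of the respiratory chain stood lower as well. Of 73 tested, 70 were below 0 (48.1% of all genes) and the median was -0.28. Of these, 1 was lower at an unadjusted p under 0.05 (2.57% of all genes), and 24 fell in the paired fit (2.37%). The length-corrected median was -0.09. The 1 gene was Cox6a2, the striated-muscle form of a cytochrome c oxidase subunit, at 1065, 1216 and 1679 CPM in WT and 888, 828 and 1158 CPM in hetL1002P. Its log2 fold change was -0.46 (SE 0.18, paired adjusted p = 0.0366), and hetL1002P 3 overlapped WT 1. Cox8b (-0.49), Atp5g2 (-0.41) and Ndufb11 (-0.40) fell in the paired fit as well. The length-corrected values of Cox6a2, Cox8b, Atp5g2 and Ndufb11 were -0.18, -0.19, -0.11 and -0.15.

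Glutathione and antioxidant enzymes stood lower in 34 of 38 genes (48.1% of all genes), with a median of -0.28. At an unadjusted p under 0.05 there were 5, all lower (2.57% of all genes), and 12 fell in the paired fit (2.37%). Length-corrected, 30 of 38 were below 0 and the median was -0.13. Beside Gstm1 and Gstm2, Mgst3, a microsomal transferase gene, was at -0.57 and Txn1, the thioredoxin gene, at -0.47, and both fell in the paired fit, with length-corrected values of -0.33 and -0.26. Without both WT 3 and hetL1002P 3 the list medians were 0.33 for the giant proteins, -0.33 for the cytosolic ribosome, -0.19 for the proteasome, -0.32 for the respiratory chain and -0.24 for the antioxidant enzymes.

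**Figure D4:**
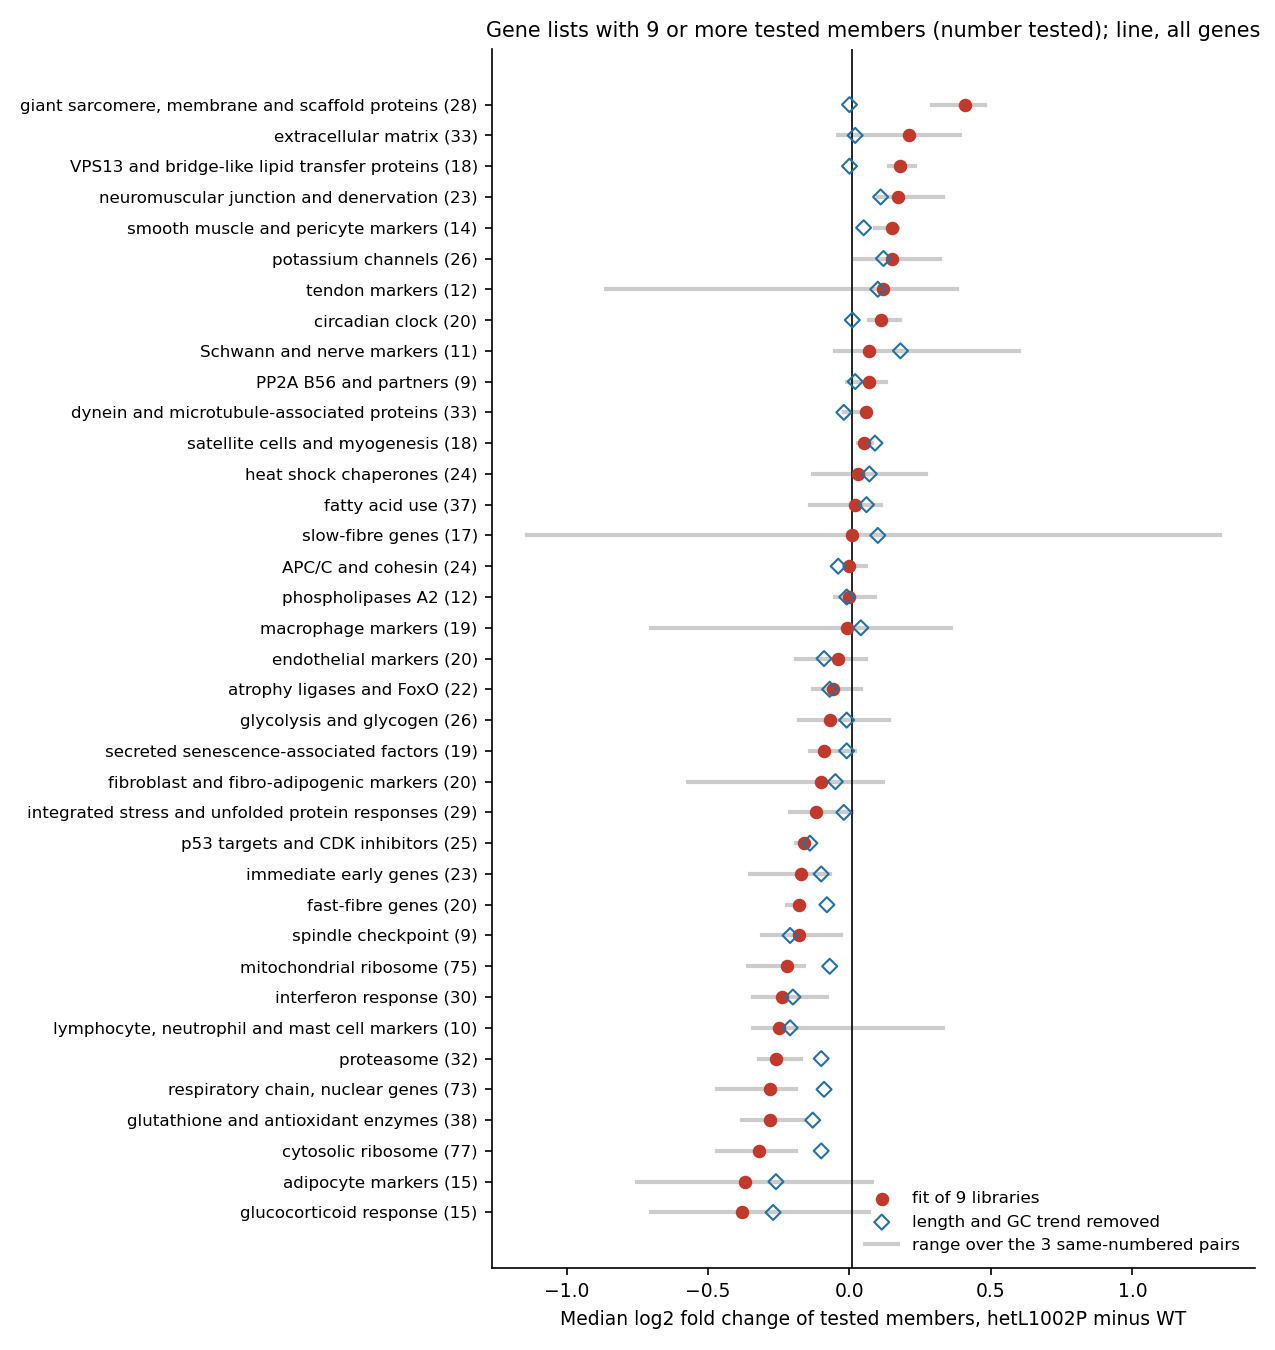
Median log2 fold change of hetL1002P over WT (horizontal axis) for each gene list with at least 9 tested members (number in brackets). Circles are the fit of 9 libraries, diamonds the fit with length correction, grey bars the range over the 3 same-numbered pairs, and the vertical line the median of all genes. The giant proteins go from 0.41 to 0.00 and the cytosolic ribosome from -0.32 to -0.10 between the fits.

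Genes of fast fibres had a median of -0.18, with 15 of 20 below 0 (48.1% of all genes) and 5 lower in the paired fit (2.37% of all genes). Its length-corrected median was -0.08. The troponin genes Tnnc2, Tnni2 and Tnnt3 of fast fibres, which make the calcium switch of the thin filament, were at -0.47, -0.44 and -0.35 and fell in the paired fit. In the length-corrected fit they were at -0.19, -0.16 and -0.11. Myh1, the IIx myosin gene, was higher at 0.46 (paired adjusted p = 0.133). The 17 slow-fibre genes had a median of 0.01 (0.10 length-corrected) with opposite signs between pairs, the pair medians being 1.31, -1.14 and 0.09. Myh7, the slow myosin gene, had 138, 688 and 206 CPM in WT and 468, 297 and 435 CPM in hetL1002P, so that slow-fibre transcripts varied among libraries within a genotype. Its part in other results was not tested.

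Genes of the neuromuscular junction and of denervation had a median of 0.17, with 16 of 23 above 0 (51.9% of all genes). Beside Musk, Lrp4, the agrin receptor gene that works with Musk, had 11.3, 9.55 and 6.62 CPM in WT and 12.6, 14.6 and 11.8 CPM in hetL1002P, without overlap. Its log2 fold change was 0.50 (SE 0.20), and it was not called in the paired fit (adjusted p = 0.0593). Ncam1, a cell adhesion gene of denervated fibres, satellite cells and Schwann cells, was at 0.50 without overlap, and Hdac4 at 0.69, and neither was called in the paired fit. In the paired fit 2 of the 22 tested members rose (2.63% of all genes), and the list median was 0.11 in the length-corrected fit and 0.00 without both libraries numbered 3.

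Of the 26 potassium channel genes 3 rose in the paired fit (2.63% of all genes) and 17 were above 0 (51.9% of all genes), with a median of 0.15, or 0.12 length-corrected. They include Kcnma1 and Abcc9, the regulatory subunit of muscle and vascular ATP-sensitive channels (0.52). Kcnn3 (1.05) and Kcnq5 (0.54) were not called. Of 33 dynein and microtubule-associated genes, 22 were above 0 (51.9% of all genes) and the median was 0.06, or -0.02 length-corrected. In the paired fit 2 of them rose and 2 fell, beside 2.63% and 2.37% of all genes. Map1a and Clasp1 (0.41) were those that rose, and Dynlt1b was among those that fell. Clasp2 (0.34) was not called in it. After length correction Abcc9 was at 0.22 and Clasp1 at 0.08.

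Genes of fuel use were spread around no change. The 26 genes of glycolysis and glycogen had a median of -0.07 (-0.01 length-corrected), and 0 were called in either fit. Pdha1, a subunit of pyruvate dehydrogenase, had 406, 411 and 382 CPM in WT and 499, 505 and 466 CPM in hetL1002P, without overlap (log2 fold change 0.30, SE 0.10, adjusted p = 0.579, paired 0.0836). It stayed at 0.30 in the length-corrected fit. Hk2 was at 0.28 and Gyg, the glycogenin gene, at -0.30.

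The 37 genes of fatty acid use had a median of 0.02 (0.06 length-corrected). Fabp4, a fatty acid carrier of adipocytes and capillary endothelium, had 151, 184 and 198 CPM in WT and 124, 119 and 133 CPM in hetL1002P, without overlap. Its log2 fold change was -0.51 (SE 0.16, paired adjusted p = 0.033), and -0.64 in the length-corrected fit. Ppargc1a, the coactivator of mitochondrial biogenesis, was at 0.45 and rose in the paired fit (adjusted p = 0.0402), with a length-corrected value of 0.18. Acsl1 (0.27) and Pnpla2 (-0.29) were not called.

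Atrophy ligases and FoxO genes had a median of -0.06 (-0.07 length-corrected), with 3 of 22 higher (2.63% of all genes) and 0 lower in the paired fit. Trim63, which encodes the ubiquitin ligase MuRF1, was at -0.35 (paired adjusted p = 0.0629), and Nedd4, another ubiquitin ligase, had 355, 336 and 252 CPM in WT and 435, 442 and 367 CPM in hetL1002P (0.40, paired adjusted p = 0.0395). Nedd4's groups did not overlap, and its length-corrected value was 0.20. Eif4ebp1, the translation repressor under mTOR, was at -0.64 and Mstn, the myostatin gene, at 0.40, and neither was called in the paired fit.

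Senescence and damage genes showed no call in the fit of all libraries. Of 25 p53 targets and CDK inhibitors 18 were below 0 (48.1% of all genes), with a median of -0.16, or -0.14 length-corrected. The paired fit called 1 higher and 4 lower, beside 2.63% and 2.37% of all genes. Rb1, the retinoblastoma gene, was the higher one (0.52, paired adjusted p = 0.0392), and Cdkn2d, which encodes p19INK4D, was among the lower (-0.46, paired adjusted p = 0.0392, -0.24 length-corrected). Ccng1, a p53 target, had 685 to 732 CPM in WT and 758 to 876 CPM in hetL1002P (0.24, paired adjusted p = 0.178), and Mdm4 was at 0.43. Cdkn2a, which encodes p16INK4A and p19ARF, was too low to test. Of 29 secreted factors linked to senescence 19 were tested, with a median of -0.09 (-0.01 length-corrected), and Vegfa rose in the paired fit (0.40, adjusted p = 0.0375). Igfbp6 and Cxcl12 were at -0.30 and 0.26, or 0.02 and 0.05 length-corrected. Il6, Il1a, Il1b, Tnf and Ccl2 were too low to test.

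Interferon response genes were lower in 20 of 30 (48.1% of all genes), with a median of -0.24, and -0.20 in the length-corrected fit. At an unadjusted p under 0.05 there were 7, all lower (against 2.57% of all genes), and 3 of 28 fell in the paired fit (against 2.37%). H2-D1 had 33.4, 50.7 and 44.3 CPM in WT and 25.5, 30 and 28.6 CPM in hetL1002P, and H2-K1 75, 105 and 80.8 CPM and 64, 73.7 and 55.4 CPM. Both were without overlap and fell in the paired fit (adjusted p = 0.0239 and 0.0368), but their sequences are close enough for reads to be shared. B2m, their light chain, was at -0.36 (paired adjusted p = 0.0434), and Irf1 (-0.45) and Bst2 (-0.60) had no overlap and were not called. Length-corrected, H2-K1 was at -0.26.

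Stress genes were mixed. The 29 genes that respond to integrated stress or to unfolded proteins had a median of -0.12, or -0.02 length-corrected. Atf4, the central factor of the integrated stress response, was at -0.41 and fell in the paired fit (adjusted p = 0.0362, -0.25 length-corrected), while Atf3 was at 0.86, Ppp1r15a at -0.50 and Trib3 at -0.59 with no call. The 24 heat shock chaperones had a median of 0.03, or 0.07 length-corrected. The paired fit called 1 of them higher and 1 lower, beside 2.63% and 2.37% of all genes. Hspa1b, an inducible Hsp70 gene with the near-identical copy Hspa1a, rose in the paired fit (0.86, adjusted p = 0.0392), and Hspb7 and Hspb3, small heat shock genes of muscle, were at 0.49 and -0.27.

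Immediate early genes had a median of -0.17, or -0.10 length-corrected, with 17 of 23 below 0 (48.1% of all genes). At an unadjusted p under 0.05 there were 4 lower and 1 higher (2.57% and 5.39% of all genes), and 4 fell in the paired fit (2.37%). Fos had 53.9, 5.94 and 7.2 CPM in WT and 7.32, 6.15 and 3.42 CPM in hetL1002P, and Junb 29, 11 and 12.7 CPM and 8.22, 8.38 and 7.88 CPM. WT 1 was far above all other libraries in both, and neither gene was called in the paired fit. Egr1, Zfp36 and Ier2 were called in it, with adjusted p of 0.0438, 0.033 and 0.033. WT 1 stood far above the other libraries in Egr1 as well, at 33.1 CPM against 9.14 and 8.12 CPM in WT 2 and WT 3. The groups of Egr1 and of Zfp36 overlapped, while those of Ier2 did not.

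The 15 glucocorticoid response genes had a median of -0.38 (-0.27 length-corrected) with pair medians of 0.07, -0.70 and -0.07, so that the list turned on WT 2. Klf9, a glucocorticoid-induced factor, was at 0.54 and rose in the paired fit (adjusted p = 0.0289), while Mt1, Mt2 and the receptor gene Nr3c1 were at -0.48, -0.65 and 0.25, the last at -0.04 length-corrected. The 20 clock genes had a median of 0.11 (0.01 length-corrected), with 0 at an unadjusted p under 0.05. Among those with the smallest p, Rora was at 0.27 (-0.15 length-corrected), Clock at 0.35 (-0.04) and Npas2 at -1.11.

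Satellite cell and myogenesis genes had a median of 0.05 (0.09 length-corrected), with 11 of 18 above 0 (51.9% of all genes) and 0 called in the paired fit. Mef2c was at 0.33 without overlap, at 0.05 in the length-corrected fit, and the developmental myosin genes Myh8 and Myh3 were at 0.75 and 0.76 with overlap. Extracellular matrix genes were above 0 in 30 of 33 (51.9% of all genes), with a median of 0.21 and pair medians of 0.30, 0.39 and -0.04. The length-corrected median was 0.02. Col6a3 (0.55, 0.22 length-corrected) was 1 of 2 among the 33 that rose in the paired fit (2.63% of all genes), and Lama2 (0.37), Lamc1 (0.26) and Eln (-0.48) were not called.

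In bulk tissue, fewer cells of a type and less RNA per cell cannot be told apart, which holds for each cell type that follows. Endothelial markers had a median of -0.04 (-0.09 length-corrected), with 6 of 20 lower at an unadjusted p under 0.05, beside 2.57% of all genes. In the paired fit 4 were lower and 1 higher, beside 2.37% and 2.63% of all genes. The 4 named by their p were Fabp4, Cldn5 (-0.59), the tight junction gene of vessels, Egfl7 (-0.43) and Ly6c1 (-0.43), all lower and called in the paired fit, with length-corrected values of -0.37 for Cldn5, -0.25 for Egfl7 and -0.19 for Ly6c1. The summed level of the list was 965 to 1028 CPM in WT and 800 to 1032 CPM in hetL1002P. Adipocyte markers were below 0 in 12 of 15 (48.1% of all genes), with a median of -0.37 (-0.26 length-corrected), and WT 2 held the highest levels: Cfd, which encodes adipsin, had 104, 189 and 82.8 CPM in WT and 66.8, 59.8 and 48.6 CPM in hetL1002P. Cfd did not overlap (-1.10, paired adjusted p = 0.0854), and Adig and Cidea were at -0.53 and 0.71.

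Fibroblast and fibro-adipogenic markers had a median of -0.10 (-0.05 length-corrected), with 13 of 20 below 0 (48.1% of all genes) and 7 above. Their pair medians were 0.12, 0.05 and -0.57. Ly6a was lower in the paired fit (-0.45, adjusted p = 0.033, -0.23 length-corrected), and Clec3b, Cxcl14 and Mfap5 were at -0.38, -0.30 and -0.29. Macrophage markers had a median of -0.01 (0.04 length-corrected) and pair medians of 0.36, 0.10 and -0.70. Aif1 (-1.04), C1qa (-0.50), C1qb (-0.49) and Cd68 (0.58) were not called. Lymphocyte, neutrophil and mast cell markers had a median of -0.25 (-0.21 length-corrected) and summed to 15.5 to 30.3 CPM in WT and 11.4 to 20.8 CPM in hetL1002P, with Cd4, Cd8a and Ms4a1 too low to test. The mast cell protease genes Mcpt4 and Cma1 were at -0.66 and -0.71, and Cd3e and Cd79b at 1.41 and 1.12 on levels near 0.

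Smooth muscle and pericyte markers had a median of 0.15 (0.05 length-corrected), with Rgs5 at 0.91, Tagln at -0.37 and Notch3 at 0.38. Abcc9 rose and Tagln fell in the paired fit, at 0.22 and -0.20 length-corrected. Tendon markers had a median of 0.12 (0.10 length-corrected) but pair medians of 0.38, 0.38 and -0.86, and their summed level in hetL1002P ran from 165 to 311 CPM against 237 to 261 CPM in WT. Scx, the tendon factor, was at -0.39 without overlap, and Mkx and Col11a1 were at 0.90 and 0.79. Schwann and nerve markers had a median of 0.07 (0.18 length-corrected), with Cnp at -0.13 and Prx at 0.25. Without both WT 3 and hetL1002P 3 the medians were 0.40 for tendon, 0.23 for macrophage, 0.10 for fibroblast and -0.44 for adipocyte markers. Of 10 erythroid markers 2 were tested, Alas2 (0.47, 0.61 length-corrected) and Bpgm (0.00, 0.09 length-corrected). With library totals alone as scaling, the medians of the endothelial, macrophage, secreted factor and atrophy lists moved to 0.05, 0.09, 0.01 and 0.02.

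Both carrier groups were compared with the same WT libraries, so their values are set side by side without a test of their likeness. In hetX753 against WT, Pla2g4e had a log2 fold change of 1.12 (adjusted p = 0.0195), Gm14085 5.67 (0.0168), Kcnma1 0.62 (0.045) and Ccne2 1.12 (0.0417). Vps13c was at 0.94, Musk at 0.59, Dynlt1b at -0.67 and Cytl1 at -0.19, none of them called. The direct test between the carriers called 15 of all 12989 genes (0.115%) and none of the 192 named by rule in hetL1002P against WT. A p above the threshold does not show that the 2 alleles act alike.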

How the data were processed

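RNA-seq libraries of mouse gastrocnemius were made with the TruSeq RNA Library Prep Kit version 2, which does not mark strand, per the labels' protocols. The authors deposited raw counts, whole numbers for each gene symbol. Per the submitters' processing notes, which give no role or order, the tools were featureCounts 1.4.6 and Subread, Bowtie2 2.2.6 and TopHat2 2.0.14, with build mm10. How multiply mapped reads and strand were treated is not given in the sources used here, nor is the annotation. The mitochondrially encoded genes are not analysed here. Among symbols, 99.34% matched a RefSeq gene of GRCm38.p6 (positions) and 98.42% a GENCODE M21 transcript (length, GC content, codon).

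Counts were tested with edgeR 4.0.16 in R 4.3.3 (filterByExpr on genotype, TMM scaling, robust dispersion, quasi-likelihood F-test) on the 9 libraries together. Genotype was the sole factor, which leaves 6 residual degrees of freedom. Adjustment was by Benjamini-Hochberg across every tested gene, with calls at 0.05. Levels are CPM on TMM-scaled totals. Alternatives used DESeq2 1.42.0, limma 3.58.1 (voom), sva 3.50.0, other scalings and filters, offsets for length and GC content (the length-corrected fit), and fits without single libraries. The steps were tested on simulated data. Replicates differed by more than counting noise (chi-square over its degrees of freedom 19.6 to 65.6).

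The titles number the replicates without saying what a number marks. The correlation of deviations from group means was positive in same-numbered pairs of WT and hetL1002P (r = 0.285, 0.36 and 0.516, against -0.454 to 0.198 in the other 6), above the bound of 0.1 set for pairing, so the paired fit is printed where it changes a call. The 3 deviations of a genotype cancel, so these r are not independent.

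The members and the 38 gene lists were chosen with earlier results of these data known, and lists are described by counts and medians with no set test. Genes named are the 12 with the smallest p in each direction and the 10 highest and 10 lowest fold changes of the paired fit that moved alike in all 3 pairs. These had to average at least 1 CPM, and predicted and sex-linked genes were left out. Up to 4 members of each list with the smallest p, Bub1b, and genes within 5 Mb of it with p under 0.05 were named as well. A few genes that meet these rules are not reported here.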

Additional observations from a re-analysis of the deposited data

How the results depend on the processing

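The count of genes called in hetL1002P against WT was 0 in edgeR on all 9 libraries, 5 with DESeq2, 2 with limma-voom, 2 with no low-count filter, 1 with 1 surrogate variable, 1 with length and GC trend removed, and 2 without both WT 3 and hetL1002P 3. Leaving out single libraries gave 0 to 1, the 1 without hetL1002P 3. The genes at an unadjusted p under 0.05 ran from 306 without WT 3 to 3566 without hetL1002P 3, so the count of 1034 turns on these libraries. The replicate block on the 6 libraries called 635 genes, 1 with the trend removed too, and 30, 4 and 227 without pair 1, 2 or 3. The block in all 9 libraries, other scalings, a filter of 1 CPM in 3 libraries, no robust estimation and the 6 libraries without a block called 0, the smallest adjusted p there being 0.0686 to 0.195. Of 4813 alternative values of 186 single genes, 140 passed the threshold where the fit of all 9 libraries did not and 37 reversed, in 18 genes, none of them called in the fit of all libraries or with the replicate block. With length and GC trend removed Rora went to -0.15, Clock to -0.04, Nr3c1 to -0.04, Igfbp6 to 0.02, Lamc1 to -0.01, Nipbl to -0.07, Pnpla8 to -0.33 and Ppp2cb to 0.00. With the replicate block as well, Rora was at -0.15, Clock at -0.02, Nr3c1 at -0.05, Lamc1 at -0.01, Nipbl at -0.05, Pnpla8 at -0.31 and Ppp2cb at 0.00. With 1 surrogate variable Notch3 went to -0.04, Prx to -0.14 and Ppp2r1b to 0.00. Bpgm, at 0.00, went to -0.01 with DESeq2, with its size factors, with the 6 libraries alone and with the replicate block, and to -0.07 without both WT 3 and hetL1002P 3. Leaving out 1 library gave Csrp3 values from -0.21 to 0.83, Npas2 from -1.72 to 0.31, Cd3e from -0.78 to 1.91, Prx from -0.03 to 0.46 and Bpgm down to -0.06. Leaving out a library or a pair took Csrp3 to -0.51, Bpgm to -0.07, Alas2 to -0.09, Atp2a2 to -0.04 and C1qb to 0.00. Of 988 alternative list medians, 51 moved by more than the spread between replicates. The share of genes near Bub1b with p under 0.05 was 22.9% within 10 Mb against 26.7% within 5 Mb. Genes at the level of Bub1b, with at most 21 counts in a library, are limited by depth.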

Other observations

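Once each library's trend on transcript length and GC content was removed, 12 of the 24 genes with the smallest p in either direction were also among the 24 named without it. They include Pla2g4e, Tm6sf1, Musk, Vps13c, Ccne2, Lims1, Mfap1a, Dynlt1b, Snhg12, H2-D1, Spns2 and Cytl1. With the exception of Pla2g4e (adjusted p = 0.00373), each had an adjusted p of 0.899 in edgeR.

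The 12 genes that entered the set are named by a rule added after the values were seen. Their fold changes in this paragraph are length-corrected, and each had an adjusted p of 0.899. Pgm5, which encodes aciculin, a partner of dystrophin and filamin C at myotendinous and costameric junctions, had 14.3, 16 and 13.8 CPM in WT and 20, 21.4 and 17.7 CPM in hetL1002P, without overlap (log2 fold change 0.43, SE 0.10). Sync, which encodes the desmin-binding protein syncoilin, had 18.7, 16 and 12.9 CPM and 23.9, 25.4 and 20.7 CPM (0.67, SE 0.17), and overlaps Rbbp4 on the other strand. Cd97, an adhesion receptor gene, was at 0.51, Snx29 at 1.15, Slc9a7, an endosomal proton exchanger gene, at 1.17 and Eogt at 0.70. On the lower side, Prkdc, the catalytic subunit of DNA-dependent protein kinase, with a transcript of 12647 bases, was at -0.49 with the trend removed and -0.07 without, and its groups overlapped in CPM. Zufsp, a ubiquitin protease gene, was at -0.64, Fabp4 at -0.64, Dlk1 at -0.83, Dpysl2 at -0.58 and Adamts13 at -0.88.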
